A study of Homo sapiens with 18 samples.

Results

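The promoters of 20033 protein-coding genes were sorted by 2 histone marks in DMSO-treated cells of MOLM-13, an established human line of acute myeloid leukemia with a KMT2A rearrangement. H3K4me3 is trimethylation of lysine 4 of histone H3 and H3K27me3 is trimethylation of lysine 27. A gene counted as carrying a mark when a deposited interval of that mark touched the 2 kb on either side of any of its annotated transcription start sites (TSS), and the interval with the highest mean DMSO level then represented the gene. By this rule 10481 genes had H3K4me3 only, which is 52.3% of all genes, 2314 genes had both marks (11.6%), 1662 genes had H3K27me3 only (8.3%) and 5576 genes had neither (27.8%). These shares are the background against which the counts of each gene group below are read. H3K27me3 lay near 18.1% of the 12795 genes with H3K4me3, and H3K4me3 lay near 58.2% of the 3976 genes with H3K27me3.

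H3K4me3 is laid down by the KMT2 and SETD1 methyltransferase complexes and sits at the start of transcribed genes, most of all at promoters rich in CpG. H3K27me3 is laid down by Polycomb repressive complex 2, whose catalytic subunits are EZH1 and EZH2, and covers genes that a cell type keeps silent, often as broad domains over developmental regulators. Promoters that hold both marks were first described in embryonic stem cells and are called bivalent. KMT2A is the methyltransferase gene that is rearranged in this leukemia, and the HOXA genes and MEIS1 are among the best known targets of its fusion proteins. H3K27ac marks active promoters and enhancers, and H3K4me1 marks enhancers and the flanks of promoters.

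The marks were profiled by Cut&Tag, in which an antibody guides a transposase to the chromatin of permeabilised cells, with 2 libraries for each mark from cells kept, per the labels, for 72 h in DMSO, the diluent of the immunoproteasome inhibitor PR-957. The study's own text gives a different time for this assay in a legend. The H3K4me3 libraries held 44591150 and 42037643 counts in their intervals, and the H3K27me3 libraries held 10032503 and 11976443. The level of an interval is given as CPM, its count scaled to the total of its library. Libraries treated with PR-957 enter no value here, except that each mark has 1 interval list for all its libraries, so an interval can have been called in a treated library alone. The labels do not say whether the replicates were separate cultures. With 2 libraries per mark and no second condition no test was made, and each value is given per library or as mean ± SD (n = 2). The libraries hold bulk chromatin, so that both marks at a gene does not say that they lay on the same allele or in the same cell, and the level of a mark cannot be told apart from the share of cells that carry it.

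Marker genes of the lineages were read from the same classes. Of 18 myeloid marker genes 12 had H3K4me3 (66.7%, against 63.9% of all genes), among them CEBPA with 112 and 109 CPM, SPI1 with 68.9 and 66.5 CPM, CD68 with 65.8 and 69.3 CPM and CD33 with 21.5 and 19.7 CPM. The granule genes MPO, ELANE, PRTN3 and AZU1 had neither mark, as did CD86 and FCGR1A. Of 6 B cell markers 3 had H3K4me3, of 7 T cell markers 3, and of 8 erythroid and megakaryocyte markers 3, and all but 1 of those genes also carried H3K27me3. So did the 3 of 6 epithelial, 1 of 4 fibroblast and 2 of 6 neural markers with H3K4me3. None of the 4 muscle markers and 1 of the 4 liver markers, APOA1 with 4.22 and 3.66 CPM, had H3K4me3. The count of myeloid markers was thus near the background, and it does not by itself tell the labelled cell type.

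To show what the classes look like in sequence, the 250 bases before the canonical start of 1 gene from each of 3 classes are given in hg38, read on the gene's strand, with every CG in capitals. They are the genes with the middle CpG ratio of their class among the genes of the lists and top loci. PHC2, a Polycomb subunit gene with H3K4me3 only, HOXA10, a homeobox gene with both marks, and the olfactory receptor gene OR1E2 with neither hold 21, 24 and 2 CG in these stretches.
PHC2, H3K4me3 only, chr1:33431096-33431345, minus strand: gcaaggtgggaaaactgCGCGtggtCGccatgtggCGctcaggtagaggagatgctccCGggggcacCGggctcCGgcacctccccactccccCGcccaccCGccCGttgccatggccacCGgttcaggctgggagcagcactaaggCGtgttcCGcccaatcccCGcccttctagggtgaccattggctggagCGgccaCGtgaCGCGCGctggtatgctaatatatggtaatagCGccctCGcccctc
HOXA10, both marks, chr7:27174321-27174570, minus strand: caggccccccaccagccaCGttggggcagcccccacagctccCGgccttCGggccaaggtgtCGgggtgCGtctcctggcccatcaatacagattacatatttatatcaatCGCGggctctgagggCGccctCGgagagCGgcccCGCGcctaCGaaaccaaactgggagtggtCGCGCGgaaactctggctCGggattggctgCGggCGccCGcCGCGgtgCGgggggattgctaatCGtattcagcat
OR1E2, neither mark, chr17:3433842-3434091, minus strand: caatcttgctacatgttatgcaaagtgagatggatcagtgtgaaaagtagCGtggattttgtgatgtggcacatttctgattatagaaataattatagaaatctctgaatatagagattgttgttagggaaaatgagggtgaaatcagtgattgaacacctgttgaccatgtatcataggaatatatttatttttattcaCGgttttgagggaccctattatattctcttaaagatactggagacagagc

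Over the whole classes, too, CG was frequent wherever H3K4me3 was present and scarce with neither mark. The CpG ratio, which is the number of CG in the 250 bases before and 50 bases after the canonical TSS over the number that the C and G content would give, had a median of 0.859 in genes with H3K4me3 only and of 0.832 in genes with both marks. It was 0.685 in genes with H3K27me3 only and 0.310 in genes with neither mark. Over 1 kb on either side of the TSS the order of the first 2 turned, with 0.694 for H3K4me3 only and 0.720 for both marks. A promoter was called CpG-rich at a ratio of at least 0.6 and at least 50% of G and C. This held for 84.3% of genes with H3K4me3 only, 82.7% with both marks, 57.8% with H3K27me3 only and 25.1% with neither, against 65.5% of all genes. Genes with both marks had the highest G and C content, with a median of 71.3% against 65.7% for H3K4me3 only and 65.3% for H3K27me3 only. Seen from the sequence, 67.4% of the 13113 CpG-rich promoters had H3K4me3 only and 14.6% had both marks, whereas 60.3% of the 6920 other promoters had neither.

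H3K4me3 was lower where H3K27me3 was also present. In genes with H3K4me3 only the median level was 21.9 and 22.1 CPM in the DMSO libraries, and in genes with both marks it was 6.39 and 5.95 CPM. Both libraries gave the same order, and the gap between the classes was far larger than the gap between the libraries. On the log2 scale genes with both marks were lower by 1.78 and 1.90 in the first and the second library, a mean difference of -1.84 ± 0.08 (SD, n = 2), which is 3.57-fold. The intervals were also narrower with both marks, with a median of 2994 bases against 4189, and per kb of interval the median was 2.12 and 1.97 CPM against 4.97 and 5.01 CPM, a 2.44-fold difference. The classes were thus further apart in total than in density. The quartiles were 13.3 and 33.0 CPM for H3K4me3 only and 2.46 and 15.0 CPM for both marks.

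H3K27me3 differed less between its classes. Its median was 13.4 and 14.1 CPM in genes with both marks and 8.42 and 8.52 CPM in genes with H3K27me3 only, a log2 difference of 0.69 ± 0.04 (SD, n = 2). Per kb the medians were 2.05 and 2.13 CPM against 1.62 and 1.66 CPM, and the interval widths 6514 and 5412 bases. This difference rested on sparse intervals: with at least 50 counts in each library it was 0.14 ± 0.03 (SD, n = 2). With only those intervals that lie in a run of at least 4 overlapping intervals it was 0.03 ± 0.04. The level of H3K27me3 was far more uneven than that of H3K4me3. Within the genes with both marks the 90th percentile was 195 CPM and the highest value was 7532 CPM, and 31.5% of the genes had a representing interval wider than 10 kb, compared with 2.6% for H3K4me3 in the same genes.

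**Figure D1:**
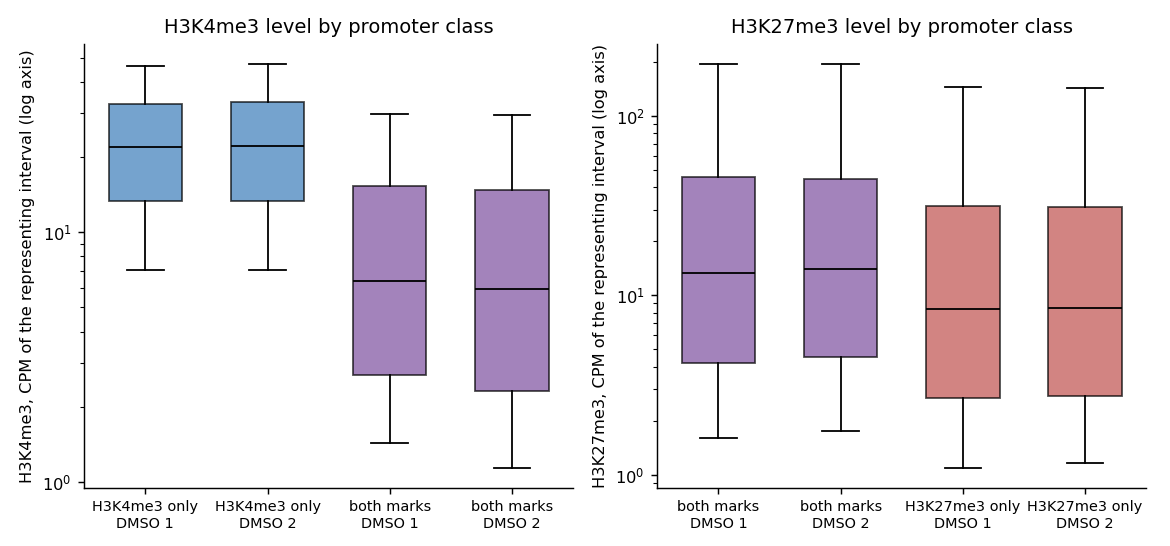
Level of H3K4me3 (left) and H3K27me3 (right) in CPM on log axes for the genes of each class in the 2 DMSO libraries. Lines are medians, boxes the quartiles and whiskers the 10th and 90th percentiles over genes. H3K4me3 medians are 21.9 and 22.1 without and 6.39 and 5.95 with H3K27me3, and H3K27me3 medians are 13.4 and 14.1 with and 8.42 and 8.52 without H3K4me3.

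The 2 libraries of a mark gave nearly the same picture in each class. Over genes, the SD of the log2 difference between the H3K4me3 libraries was 0.15 for H3K4me3 only and 0.28 for both marks. For H3K27me3 it was 0.46 for both marks and 0.50 for H3K27me3 only, at a median of 134 and 168.5 counts and of 84.5 and 102 counts per representing interval. Pearson correlations over genes of the log2 levels in the libraries of a mark ran from 0.984 to 0.993 across these classes, as a description of genes that share their libraries. The H3K27me3 calls were thus the less precise ones, and 147 genes with both marks and 157 with H3K27me3 only had fewer than 10 counts in a library in the representing interval.

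H3K27ac and H3K4me1, which the rule did not use, separated the classes in different ways. An H3K27ac interval lay near 95.4% of the genes with H3K4me3 only (95% Wilson interval 95.03 to 95.83) and near 58.8% of those with both marks (56.8 to 60.8). The share was 17.7% (15.9 to 19.6) with H3K27me3 only and 7.82% (7.14 to 8.55) with neither mark. H3K4me1 lay near 61.5% (59.5 to 63.5) of genes with both marks and 60.6% (59.6 to 61.5) of those with H3K4me3 only, an order that turned with a window of 5 kb, and reached 19.6% and 10.8% in the other two classes. These intervals cover the counting of genes only. Where H3K27ac was present its median level was 15.7 and 15.8 CPM with H3K4me3 only, 6.20 and 6.21 CPM with both marks and 2.87 and 3.10 CPM with H3K27me3 only. With at least 50 counts required in each library the H3K27ac shares were 83.9%, 33.2%, 5.30% and 3.12%, in the same order.

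Beside the class marks, 59.1% of the H3K4me3 only genes held H3K27ac and H3K4me1, 36.3% held H3K27ac alone, 1.45% H3K4me1 alone and 3.10% none of these. Among the genes with both marks 42.9% held both further marks, 15.9% H3K27ac alone, 18.6% H3K4me1 alone and 22.6% none. H3K4me1 without H3K27ac was thus a larger share of the genes with both marks than of the other classes, where it was 1.45%, 12.5% for H3K27me3 only and 6.62% for neither. None of the further marks lay near 69.8% of the genes with H3K27me3 only and 85.6% of those with neither.

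**Figure D2:**
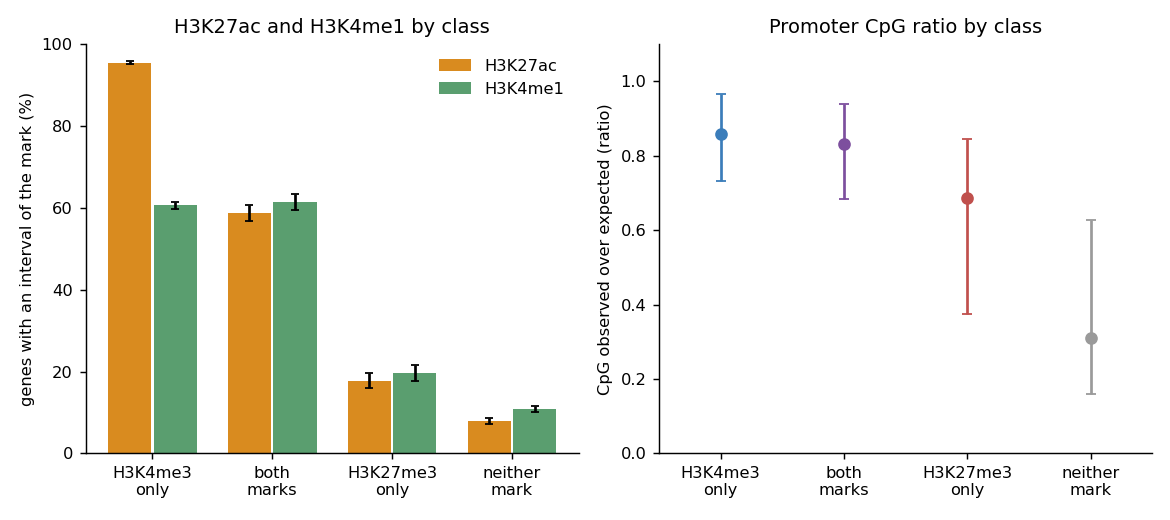
Left, share of the genes of each class with an H3K27ac or H3K4me1 interval in percent, with 95% Wilson intervals over genes. Right, median CpG ratio (observed over expected) of the promoters of each class, with bars from the lower to the upper quartile. H3K27ac falls from 95.4% to 7.82% along the classes, whereas H3K4me1 is near 61% with H3K4me3 only and with both marks.

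The genes with both marks were themselves mixed in how the intervals lay to each other. In 1017 of the 2314 genes (43.9%) the H3K4me3 interval lay wholly inside the H3K27me3 interval, in 769 (33.2%) they overlapped in part, and in 528 (22.8%) they did not overlap. In the nested genes H3K4me3 had a median of 3.27 and 3.04 CPM, H3K27me3 of 27.01 and 27.05 CPM over a median width of 9403 bases, and H3K27ac lay near 36.2%. In the genes without overlap the medians were 13.4 and 13.4 CPM for H3K4me3 and 10.6 and 10.9 CPM for H3K27me3, and H3K27ac lay near 84.1%. These last genes had a median of 10 annotated TSS against 5 in the nested genes, and the marks can lie at different TSS of a gene. Partly overlapping genes lay between these in H3K4me3, at 9.96 and 9.59 CPM, and in H3K27ac, at 71.3%, but had the lowest H3K27me3 of the 3 arrangements, at 4.59 and 4.84 CPM.

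The levels of the 2 marks were weakly related across these genes, with a Spearman correlation of -0.09 (Pearson -0.05) in CPM and of -0.16 (Pearson -0.14) per kb over 2314 genes that share their libraries and in part their intervals. H3K27ac differed more across the levels of H3K4me3 than across those of H3K27me3. From the lowest to the highest quartile of H3K4me3 the share of genes with H3K27ac was 23.1%, 38.1%, 76.6% and 97.2%, and from the lowest to the highest quartile of H3K27me3 it was 65.8%, 60.6%, 54.3% and 54.4%. In the quartile with the highest H3K27me3, which starts at 44.8 CPM, H3K4me1 lay near 78.4% of the genes, against 52.4% to 58.5% in the other quartiles.

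**Figure D3:**
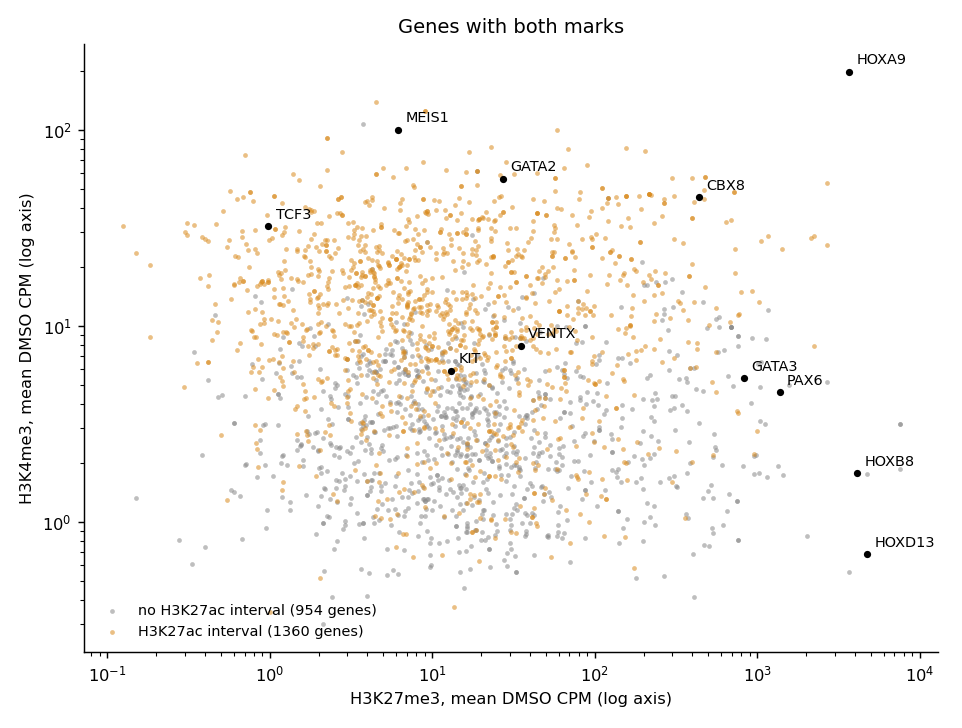
H3K27me3 (x axis) and H3K4me3 (y axis) of the 2314 genes with both marks as mean DMSO CPM on log axes, coloured by whether an H3K27ac interval lies near the gene, with 11 genes named. Most genes with H3K27ac lie in the upper part of the H3K4me3 axis, and HOXA9 lies apart from HOXB8 and HOXD13 at a similar H3K27me3 level.

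The HOX genes, homeobox regulators of body position that lie in 4 clusters, all carried H3K27me3. Of 39 genes 23 had H3K27me3 only and 16 had both marks. The broad representing H3K27me3 intervals were the highest in the classes, and each covers most of a cluster. The HOXC interval (chr12:53917109-54095191, 178082 bases) held 7692 and 7373 CPM, the HOXD interval (chr2:176060059-176196945) 4856 and 4690 CPM, the HOXB interval (chr17:48516231-48652329) 4158 and 4112 CPM and the HOXA interval (chr7:27143865-27263758, 119893 bases) 3766 and 3613 CPM. Per kb of interval the 4 clusters were close, at 43.2 and 41.4 CPM for HOXC and 35.5 and 34.3 CPM for HOXD. HOXB had 30.5 and 30.2 CPM per kb and HOXA 31.4 and 30.1 CPM. The class medians per kb were 2.05 and 2.13 CPM for both marks and 1.62 and 1.66 CPM for H3K27me3 only.

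H3K4me3 set the HOXA cluster apart. A single H3K4me3 interval of 50909 bases (chr7:27145930-27196839) with 205 and 191 CPM, a mean of 198 ± 9.79 (SD, n = 2), lay within the H3K27me3 interval and represented HOXA3, HOXA6, HOXA7, HOXA9, HOXA10, HOXA11 and HOXA13. It was the highest H3K4me3 level of any gene with both marks in CPM summed over the interval. Per kb of interval it was 4.03 and 3.76 CPM. The class medians per kb were 2.12 and 1.97 CPM for both marks and 4.97 and 5.01 CPM for H3K4me3 only. H3K27ac of 270 CPM represented HOXA3, HOXA6, HOXA7, HOXA9 and HOXA10, and 82.0 CPM represented HOXA11 and HOXA13. In the other clusters H3K4me3 lay between 0.681 and 3.14 CPM at the 7 genes where it was found, which are HOXB7, HOXB8, HOXC4, HOXC6, HOXC9, HOXD8 and HOXD13, and no gene had H3K27ac. HOXC4, HOXC6 and HOXC9 lost H3K4me3 when the canonical TSS alone was used.

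Some HOXA genes lay on other intervals. HOXA2 had 27.5 and 24.1 CPM of H3K27me3 without H3K4me3. HOXA4 had 6.26 and 8.09 CPM of H3K4me3 and 5.08 and 5.18 CPM of H3K27me3. HOXA5 lay on the broad H3K27me3 interval and had no H3K4me3 interval within 2 kb. HOXA13 was assigned the broad H3K4me3 interval through another TSS, and at its canonical TSS the H3K4me3 level was 32.9 CPM.

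**Figure D4:**
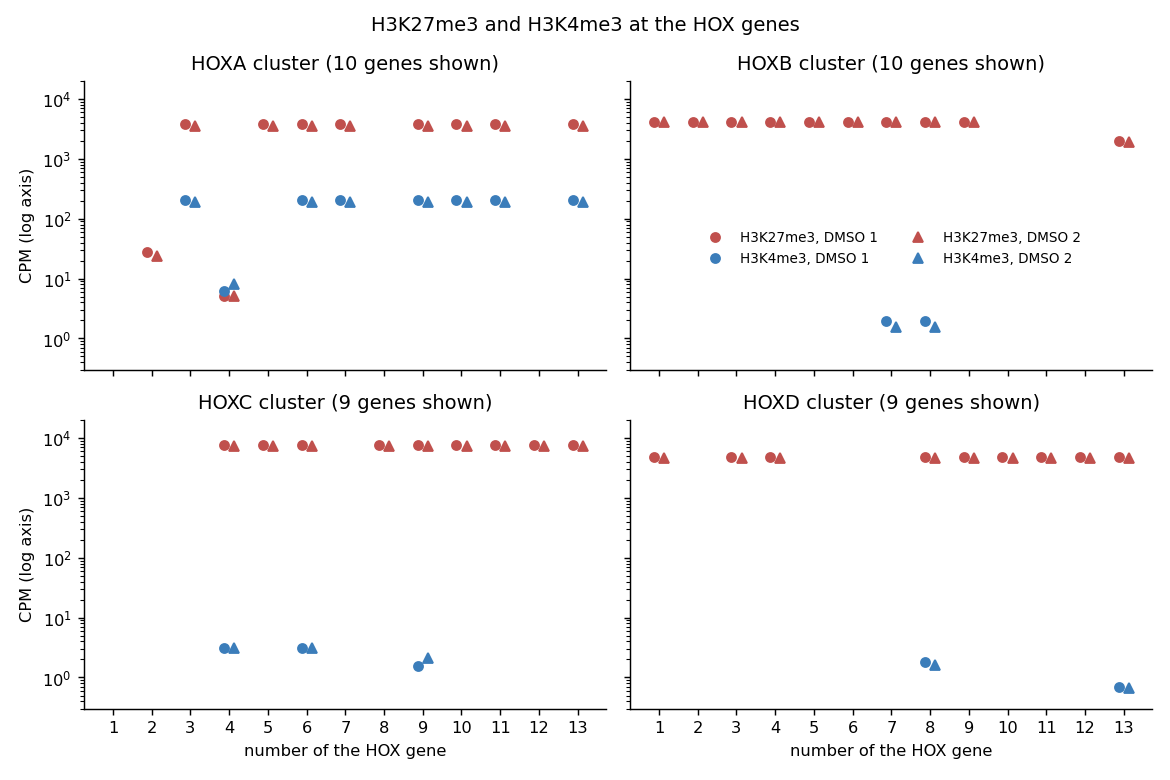
H3K27me3 (red) and H3K4me3 (blue) of the HOX genes shown in CPM on log axes, by cluster and gene number, for DMSO library 1 (circles) and 2 (triangles). Genes on the same interval share its value. H3K4me3 near 200 CPM is seen in HOXA3, HOXA6, HOXA7, HOXA9, HOXA10, HOXA11 and HOXA13, and values of at most 3.14 CPM in the HOXB, HOXC and HOXD clusters.

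Of the 21 KMT2A target genes that the study names, 7 had H3K4me3 only, 12 both marks and 2, HOXA2 and HOXA5, H3K27me3 only. Outside HOXA the level of H3K4me3 varied widely. MEIS1, the homeobox partner of HOXA9, had 99.9 and 101 CPM of H3K4me3 over 15557 bases and only 7.28 and 5.09 CPM of H3K27me3. RUNX2 had 76.6 and 73.5 CPM, the cyclin-dependent kinase gene CDK6 71.4 and 76.5 CPM, the receptor tyrosine kinase gene FLT3 54.1 and 56.0 CPM, PBX3 45.8 and 46.0 CPM and MEF2C 20.5 and 23.6 CPM, each without H3K27me3. The RUNX2 interval lay at another TSS of the gene, whose canonical TSS had neither mark. The median over the 19 targets with H3K4me3 was 71.4 and 73.5 CPM, against 19.5 and 19.5 CPM over all genes with H3K4me3, and 7 of the 19 shared the HOXA interval. CDK9 had 30.7 and 33.5 CPM and the receptor tyrosine kinase gene AXL, the lowest of the targets, 5.25 and 3.66 CPM of H3K4me3. VENTX had 7.58 and 8.25 CPM of H3K4me3 and 35.7 and 34.5 CPM of H3K27me3. At GNAS, with 35.5 and 33.2 CPM of H3K4me3 and 123 and 118 CPM of H3K27me3, the intervals did not overlap, and the canonical TSS had H3K4me3 only.

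Transcription factors of blood divided by lineage. All 22 myeloid factors had H3K4me3, 17 of them without H3K27me3 (77.3% against 52.3% of all genes), at a median of 49.6 and 50.0 CPM. CEBPD, a CCAAT-enhancer binding protein gene on chromosome 8, had 123 and 125 CPM, the repressor gene GFI1 122 and 121 CPM, MYB 89.0 and 89.7 CPM and RUNX1 76.7 and 80.5 CPM. The 5 with both marks included GATA2, EGR2, FLI1 and ERG. GATA2 had 57.6 and 55.3 CPM of H3K4me3 beside 27.6 and 26.9 CPM of H3K27me3, whereas ERG had 1.88 and 0.785 CPM of H3K4me3 beside 56.2 and 51.2 CPM of H3K27me3. The H3K4me3 level of the myeloid genes with both marks thus differed widely between GATA2 and ERG. CPM of different marks come from separate libraries and are not on a common scale, so they do not say which mark prevailed. With the canonical TSS alone 3 of the 22 factors had both marks and 1 had H3K27me3 only.

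Of the 20 factors of other blood lineages 13 had both marks (65.0% against 11.6% of all genes), 3 H3K4me3 only and 4 neither. The T cell factor gene GATA3 had 826 and 844 CPM of H3K27me3 and 5.25 and 5.52 CPM of H3K4me3. PAX5, which defines B cells, had 475 and 479 CPM of H3K27me3 and 15.3 and 16.1 CPM of H3K4me3. TAL1, BCL11B and EOMES had mean H3K27me3 levels of 320, 260 and 145 CPM. The 3 with H3K4me3 only were ZBTB7B, PRDM1 and NFE2, and FOXP3, GATA1 and POU2AF1 were among those with neither mark. TCF3, with 32.3 and 32.2 CPM of H3K4me3, was placed among the genes with both marks by an H3K27me3 interval of 869 bases with 1.296 and 0.668 CPM.

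Developmental transcription factors outside HOX lay almost wholly on H3K27me3. Of 102 genes 50 had both marks (49.0%), 43 H3K27me3 only (42.2%), 8 neither and 1, WT1 with 74.7 and 70.9 CPM of H3K4me3, H3K4me3 only. The median over the 93 with H3K27me3 was 403 and 400 CPM, against 11.2 and 11.2 CPM over all genes with the mark. The eye and brain regulator PAX6 had 1363 and 1386 CPM of H3K27me3 and 4.62 and 4.57 CPM of H3K4me3, and SOX2 had 151 and 149 CPM of H3K27me3 and no H3K4me3. Of these 102 genes 41 had H3K4me1 (40.2%, against 43.4% of all genes) and 14 H3K27ac (13.7%, against 60.4%). The secreted ligands of the WNT, FGF, BMP and hedgehog families were similar in class: 22 of 42 had both marks, 15 H3K27me3 only, 3 neither, and WNT10B and INHBA H3K4me3 only, with a median of 44.6 and 44.7 CPM of H3K27me3 over 37 genes.

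Genes of neurons and muscle excitability were spread over all 4 classes. Of 50 voltage-gated channel genes 8 had H3K4me3 only (16%, against 52.3% of all genes) and 15 both marks (30% against 11.6%). A further 13 had H3K27me3 only (26% against 8.3%) and 14 neither (28% against 27.8%). Of 36 glutamate and GABA receptor genes the counts in the same order were 4 (11.1%), 5 (13.9%), 9 (25%) and 18 (50%). Both lists were thus below the background in H3K4me3 only and above it in H3K27me3 only. The share of channel genes with neither mark was near the background. The 4 receptor genes with H3K4me3 only all encode GABA receptor subunits: GABRA4 and GABRB1 share an interval with 8.48 and 8.75 CPM, and GABRA6 and GABRB2 share another with 5.02 and 5.04 CPM.

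Most genes that every dividing cell uses had H3K4me3 and no H3K27me3. All 44 genes of DNA replication and all 24 of the H3K4 methyltransferase list were H3K4me3 only, at medians of 21.7 and 23.04 CPM and of 33.2 and 31.6 CPM. The methyltransferase list also holds the demethylase genes KDM5A, KDM5B and KDM5C and the genes DOT1L, MLLT1, MLLT3, MLLT10, AFF1, AFF4 and ELL. KMT2A itself had 56.7 and 58.0 CPM, its fusion partner gene MLLT3 10.7 CPM on average and MEN1, which encodes menin, 11.6 and 11.7 CPM. Of 89 genes matched by name to cytosolic ribosomal proteins 82 were H3K4me3 only, 1, RPL38, had both marks and 6 neither. Of 39 proteasome subunit genes 33 were H3K4me3 only and 6 neither, and of 69 replication-dependent histone genes 57 and 12. Among 24 cyclins, CDK inhibitors and related genes 18 had H3K4me3 only, with MYC at 146 and 144 CPM, and CCND1, CCND2, CDKN1C and JUN had both marks. CDKN2A and CDKN2B had neither.

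Polycomb genes mostly had H3K4me3 only. Of 38 genes 25 had H3K4me3 only (65.8%, against 52.3% of all genes). Among them were EZH2 with 28.5 and 29.7 CPM, EED with 21.1 and 24.4 CPM and SUZ12 with 6.82 and 6.18 CPM. They form the core of the H3K27 methyltransferase. The list also holds KDM6A, KDM6B and UTY, of the H3K27 demethylase family. The 8 with both marks (21.1% against 11.6%) included CBX2, CBX6, CBX7 and CBX8, which encode readers of H3K27me3, and PCGF1, PCGF5 and PHC1. CBX8 had 447 and 436 CPM of H3K27me3 and 45.0 and 45.8 CPM of H3K4me3, and CBX2 had 114 and 110 CPM of H3K27me3. CBX6 and CBX7 had mean H3K27me3 levels of 6.46 and 4.10 CPM. No gene of the list had H3K27me3 only.

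Among further gene families, some of other tissues, the share with neither mark differed between kinds of gene. Of 415 olfactory receptor genes 407 had neither mark (98.1%, against 27.8% of all genes), 6 H3K27me3 only and 2, OR1F1 and OR52N2, H3K4me3 only. Of 53 clustered protocadherins 50 had neither (94.3%), and PCDHGC3, PCDHGA11 and PCDHGB3 had H3K4me3 only. Of 149 keratin and keratin-associated protein genes 128 had neither (85.9%), 18 H3K27me3 only, KRT8 and KRT18 both marks and KRT10 H3K4me3 only. Of 246 zinc finger genes of chromosome 19 149 had H3K4me3 only (60.6%, against 52.3% of all genes) and 94 neither (38.2% against 27.8%). These shares were nearer to the background than those of the families above. Of the 94, 39 lay in stretches without an interval of any mark, which are described below. ZNF536 and ZNF574 had both marks and ZNF358 H3K27me3 only. Of 31 innate immune genes 17 had H3K4me3 only (54.8%, against 52.3% of all genes) and 13 neither (41.9% against 27.8%). TLR5 was the 1 with both marks, through an H3K27me3 interval of 872 bases with 0.399 and 1.17 CPM. That interval did not overlap the H3K4me3 interval of TLR5 and was not at the canonical TSS. Without an H3K4me3 interval CCL2 had 71.7 CPM of H3K4me1 and IL10 38.6 CPM, as means of the libraries.

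**Figure D5:**
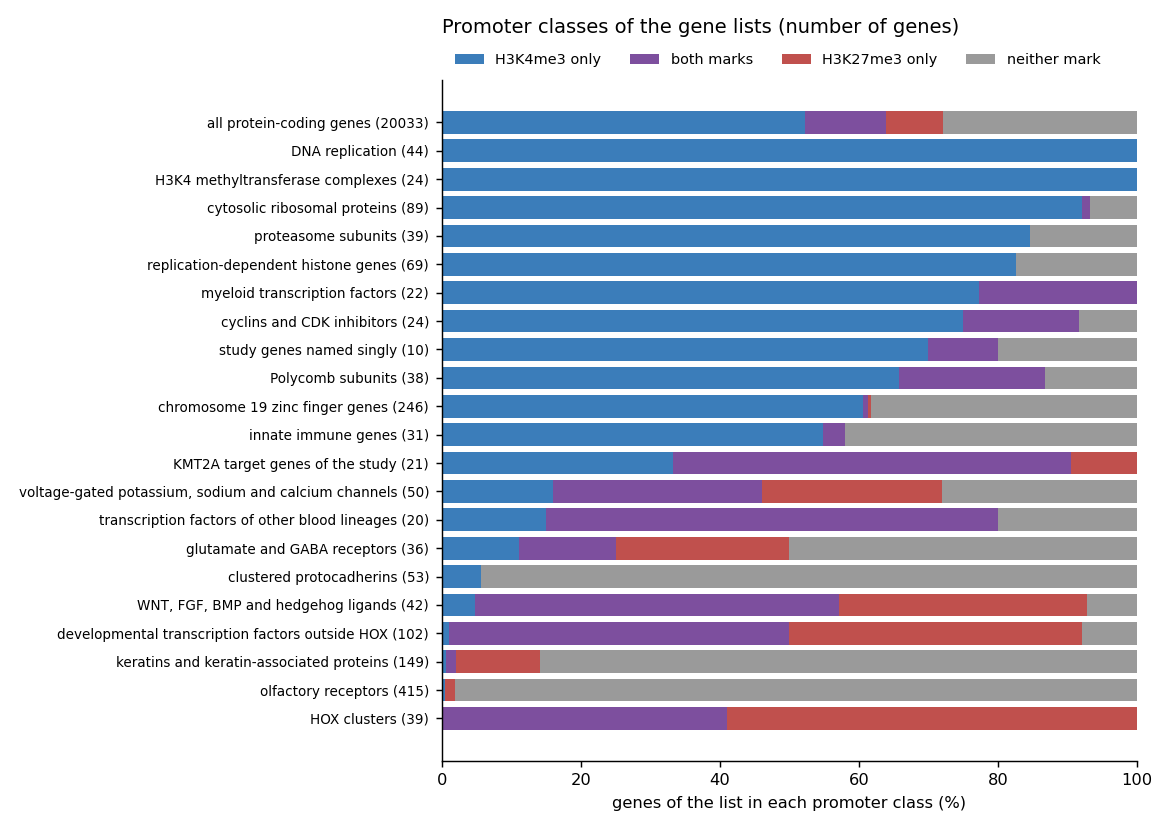
Share of the genes of each list in the 4 promoter classes in percent, with the number of genes in brackets and all protein-coding genes on top. H3K4me3 only makes up all of the DNA replication and H3K4 methyltransferase lists, both marks and H3K27me3 only nearly all of the HOX, developmental factor and ligand lists, and neither mark nearly all olfactory receptors.

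The highest H3K4me3 levels in the H3K4me3 only class came from wide intervals, many of them on chromosome 8. The interval over C8orf82, GPT, LRRC14, LRRC24, MFSD3 and RECQL4 (chr8:144505789-144531208, 25419 bases) had 252 and 240 CPM, that of SUPT4H1 and TSPOAP1 (chr17:58321930-58346853) 207 and 200 CPM and that of RDH10 and RPL7 (chr8:73290083-73298193) 174 and 182 CPM. KLF16 and REXO1 (chr19:1845343-1866523) had 182 and 174 CPM and ST3GAL1 (chr8:133567235-133576835) 176 and 178 CPM. Over all 312 H3K4me3 only genes of chromosome 8 the median was 48.7 and 50.0 CPM, against 21.4 and 21.6 CPM on all other chromosomes. H3K27me3 had a median of 15.9 and 16.4 CPM on chromosome 8, against 11.2 and 11.2 CPM over all genes with the mark. That level was not particular to chromosome 8. Chromosome 17 had 19.8 and 19.3 CPM, chromosome 16 15.8 and 15.9 CPM, chromosome 19 15.6 and 15.6 CPM and chromosome 20 15.3 and 16.6 CPM. Copy number was not measured in these data, and its part in these levels was not tested. Without chromosome 8 the difference of H3K4me3 between the classes was -1.83 on the log2 scale.

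After HOXA, the genes with both marks at the highest joint rank were ATP8B3 (53.6 CPM of H3K4me3 and 2700 CPM of H3K27me3, on separate intervals), OSR2 with STK3 (48.4 and 720 CPM), HMX2 with HMX3 (57.5 and 477 CPM) and METRN (49.3 and 474 CPM, on separate intervals), whose H3K27me3 interval also represented WDR24. ATP8B3 shared its H3K27me3 interval (chr19:1715245-1790193) with ONECUT3, a homeobox gene with H3K27me3 only. OSR2, HMX2 and HMX3 are developmental transcription factor genes, and STK3, a kinase gene, was carried into the group by a neighbouring interval.

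Genes with neither mark were not all alike. Of the 5576 genes 4771 (85.6%) also lacked H3K27ac and H3K4me1. As means of the libraries MPO, the myeloperoxidase gene, had 25.1 CPM of H3K27ac and 40.1 CPM of H3K4me1, and CD79A had 86.5 and 91.7 CPM. The H3K4me1 value of CD79A was also the highest among the cytosolic ribosomal protein genes, so CD79A shared that interval with a gene of that list. Within the class 1400 genes had a CpG-rich promoter. Of these 560 (40.0%) lay in 82 stretches, each longer than 20 kb and with at least 3 CpG-rich promoters, that held no interval of any of the 4 marks. The most genes lay in the stretch over the major histocompatibility complex (chr6:29887043-32663914, 2777 kb with 119 genes), followed by stretches of 64 genes on chromosome 8 and of 45 on chromosome 17. RPL7A, RPS9, RPS18 and RPS25, the proteasome genes PSMB3, PSMB8, PSMB9 and PSMC4, and the Polycomb genes EPOP, PCGF2, PHF1 and RING1 lay in such stretches, as did CCL3, CCL4, IRF7 and TNF of the innate immune genes and 39 of the 94 chromosome 19 zinc finger genes with neither mark. In all they held 1035 genes, 1017 of them with neither mark. The stretches were found after the values were seen, and why they hold no interval was not tested. For these genes the class says only that the files used here list no interval. Outside the stretches the class had 4559 genes, a median CpG ratio of 0.276 and a CpG-rich share of 18.4%, against 0.646 and 55.1% for its genes inside them. The stretches were defined by CpG-rich promoters and missing intervals, so this contrast and the share with neither mark follow in part from the definition.

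The limit of 2 kb decided few genes. Of the 3976 genes with H3K27me3, 3574 had a TSS inside an interval, 250 had the nearest interval within 1 kb and 152 between 1 and 2 kb, and 321 further genes had it between 2 and 5 kb. Just inside the limit were JOSD2 at 1987 bases with 6.18 and 6.01 CPM, CD300H at 1952 bases and ENSG00000284969 at 1919 bases. Just outside were EXTL1 at 2002 bases, DNAI2 at 2011 bases and DVL1 at 2012 bases, the last with 94.3 and 89.2 CPM in the interval it missed. With the canonical TSS alone 95.7% of genes kept their class, and of the 2314 genes with both marks 1878 kept it, 220 became H3K4me3 only, 144 H3K27me3 only and 72 neither.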

How the data were processed

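Cut&Tag libraries of MOLM-13 cells in DMSO were analysed, 2 for each mark. The authors deposited counts of reads per interval, not normalized, in hg38 coordinates. Per the labels and the study's methods, reads were trimmed with Trimmomatic 0.39, aligned with Bowtie2 2.2.5, handled with SAMtools 1.7 and Picard 2.27.1, and called with SEACR 1.3; deepTools 3.5.1 is also listed. The counter and the treatment of duplicates are not given in the sources used here. Each mark has 1 interval list, and its intervals overlap each other, so a read can be counted more than once.

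Counts were divided by the library's total over its intervals to give CPM. Genes and TSS came from GENCODE 44, with a window of 2 kb. The group of each library came from its label. Promoter sequence was read from the hg38 genome, since the RefSeq promoter table that had been planned matched too few symbols. For the printed promoters, stretches in an annotated exon were passed over. Genes were named from lists of known function, the 5 top loci of each class, and the genes nearest the window limit. Genes singled out beyond these were chosen after their values were seen. The members and lists were chosen with earlier results of these data known. No p-value was computed: with 2 libraries the smallest two-sided exact permutation p is 0.5. Intervals of shares cover counting error only. Scripts were tested on simulated data of 400 genes. Python 3.11.15, pandas 2.3.3, numpy 2.4.6, scipy 1.17.1, matplotlib 3.10.9, R 4.3.3 and, for an alternative scaling, edgeR 4.0.16 were used. Alternatives changed the window, the TSS, the count minimum, the overlap and the scaling, or left out a library. The libraries of treated cells were not used, and some genes and a promoter sequence are not reported here.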

Additional observations from a re-analysis of the deposited data

How the results depend on the processing

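The mean differences of H3K4me3 and H3K27me3 between classes kept their direction under each alternative run. For H3K27me3 with runs of at least 4 overlapping intervals the SD of 0.038 (n = 2) exceeded the difference of 0.027. Its direction is therefore not settled in that setting. A scaling factor acts alike on all intervals of a library, so the alternative library scalings could not change these differences. Leaving out a library could change the class counts only through the count minimum, since the interval list stays the same. The scaling results are counted among the 82 values below. The order of H3K4me3 only and both marks turned for the CpG ratio over 1 kb and for the H3K4me1 share with 5 kb. No paired analysis was possible because each difference is between gene classes within the same library, with no groups of libraries to pair. With at least 50 counts in each library 1443 genes had both marks, and with runs of at least 4 overlapping intervals, a setting added after the data were seen, 1317. The log2 difference of H3K27me3 between both marks and H3K27me3 only was 0.62 with a 1 kb window, 0.91 with 5 kb, 0.52 with the canonical TSS, 0.14 with 50 counts, 0.35 per kb and 0.027 with runs of 4. That of H3K4me3 between both marks and H3K4me3 only was -1.58 with 5 kb, -2.09 with the canonical TSS, -1.66 with 50 counts, -1.27 per kb, where the densest interval represented the gene, and -1.48 with runs of 4. The H3K27ac shares, from H3K4me3 only to neither, were 95.9%, 65.2%, 23.1% and 8.83% with 5 kb and 83.9%, 33.2%, 5.30% and 3.12% with 50 counts. With 1 kb they were 55.9% for both marks, 15.7% for H3K27me3 only and 6.95% for neither. The H3K4me1 shares were 67.7%, 67.4%, 23.3% and 13.3% with 5 kb, 56.3%, 59.1% and 17.4% for the first 3 classes with 1 kb, and 50.8% and 55.6% for H3K4me3 only and both marks with 50 counts, against 60.6% and 61.5%. Over 1 kb on either side of the TSS the CpG ratio was 0.694 for H3K4me3 only and 0.720 for both marks, against 0.859 and 0.832 in the main window. Leaving out each library, with at least 10 counts in those kept, gave 10562 to 10627 genes with H3K4me3 only. It gave 2168 to 2233 with both marks, 1506 to 1569 with H3K27me3 only and 5669 to 5732 with neither. Without a count minimum it gave differences of -1.90 to -1.78 and 0.66 to 0.73. With 2 libraries these are nearly the values of the library kept, and such values lie within the SD of their mean by arithmetic. They are counted among the 82 values but could not show a change. The other 82 values stayed within the SD of the libraries (differences), the Wilson interval (shares), the quartiles over genes (CpG ratio) or 1.5 times (counts). Depth limits H3K27me3 most, with a median of 42 and 50 counts per interval.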
